A study of Mus musculus with 36 samples.

Results

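The circadian clock genes described here are Per1, Per2, Per3, Cry1, Cry2, Dbp, Tef, Nr1d1, Nr1d2 and Arntl. They were found by symbol among the 27562 genes of the FPKM table, where each of the 10 had 1 row, and their values were read in all 36 libraries. RNA was sequenced from AΦ and monocytes sorted from lungs of male C57BL/6J mice (CD45.2) that had been lethally irradiated with the chest shielded, given busulfan and transplanted with bone marrow of B6.SJL-Ptprca Pepcb/BoyJ mice (CD45.1), so that every group here is from chimeric mice. The mice breathed filtered air (FA) or concentrated fine particulate matter (PM2.5) for 4-weeks or 32-weeks, with 3 libraries in each of 12 groups. The 18 AΦ libraries were TR-AΦ (tissue-resident, CD45.2) of both time points and BM-AΦ (from bone marrow, CD45.1) of 32-weeks. The 18 monocyte libraries were host (CD45.2) monocytes of 4-weeks and 2 populations of 32-weeks that the labels number 1 and 2. They are called monocytes 1 and monocytes 2 here, since reading them as CD45.1 and CD45.2 rests only on the numbering given for AΦ. Values are in FPKM (fragments per kilobase of exon, relative to how many fragments mapped in that library), so the depth behind a value is unknown.

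The clock is a loop of transcription and repression that runs in nearly every cell with a period of about a day. ARNTL (BMAL1) pairs with CLOCK and binds E-box sequences to switch on Per and Cry genes, whose proteins return to the nucleus and block that pair. The same pair drives Nr1d1 and Nr1d2 (REV-ERBα and REV-ERBβ), which repress Arntl through ROR elements, and Dbp and Tef, whose proteins bind D-boxes in output genes. Peritoneal and lung macrophages are known to have such a clock, and the levels of these transcripts in any tissue depend on the hour at which it is taken. That hour is not given in the sources used here for any mouse.

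The bases before the start sites of 4 members are shown because they carry the sequences that the loop works through. RefSeq promoter windows on GRCm38.p6 (250 bases before to 50 bases after a start) were found for 9 of the members in 12 windows, and Per2 had none. Each window was searched on both strands for an E-box (CACGTG), a related E-box (CACGTT), a D-box (TTATGTAA or TTACGTAA), a ROR element (TAGGTCA or TGGGTCA) and a cAMP response element (TGACGTCA), which in these windows did not overlap each other. The 250 bases before the start are printed, 5′ to 3′, with matches in capitals. The capitals are an E-box in Per1 and Tef, an E-box and a related E-box in Cry1, and a related E-box in Nr1d1, with the CACGTT letters of both related E-boxes on the other strand (printed as AACGTG).

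Per1, chr11:69098699-69098948, plus strand: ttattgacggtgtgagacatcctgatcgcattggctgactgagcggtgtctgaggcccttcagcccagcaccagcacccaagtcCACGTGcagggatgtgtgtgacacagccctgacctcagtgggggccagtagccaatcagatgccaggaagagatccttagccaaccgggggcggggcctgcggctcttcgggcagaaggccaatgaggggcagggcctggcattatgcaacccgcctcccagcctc
Cry1, chr10:85185055-85185304, minus strand: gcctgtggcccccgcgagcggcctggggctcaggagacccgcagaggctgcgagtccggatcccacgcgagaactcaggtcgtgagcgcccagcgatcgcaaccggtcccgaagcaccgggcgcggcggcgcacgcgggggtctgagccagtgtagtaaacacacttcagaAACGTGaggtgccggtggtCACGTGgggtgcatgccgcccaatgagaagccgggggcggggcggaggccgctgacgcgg
Nr1d1, chr11:98775378-98775627, minus strand: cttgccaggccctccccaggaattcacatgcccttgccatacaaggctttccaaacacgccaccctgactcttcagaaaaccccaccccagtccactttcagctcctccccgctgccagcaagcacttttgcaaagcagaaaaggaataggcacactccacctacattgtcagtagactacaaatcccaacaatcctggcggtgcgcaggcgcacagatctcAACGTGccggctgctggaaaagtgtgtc
Tef, chr15:81811164-81811413, plus strand: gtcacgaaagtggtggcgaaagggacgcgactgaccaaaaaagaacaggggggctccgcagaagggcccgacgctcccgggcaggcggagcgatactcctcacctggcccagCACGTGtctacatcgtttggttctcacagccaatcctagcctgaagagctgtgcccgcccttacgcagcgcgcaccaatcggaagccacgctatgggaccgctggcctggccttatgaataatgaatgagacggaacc

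The E-box was in 7.15% of all 32851 promoter windows and in windows of 3 members, Cry1, Per1 and Tef. The related E-box was in 4.68% of all windows and in those of Cry1, Cry2 and Nr1d1. A D-box was in 1.06% of all windows and, among the members, only in that of Per3, which held it at 2 places. A ROR element was in 6.45% of all windows and in 1 of the Arntl windows, and the cAMP response element was in 1.79% of all windows and in none of the members' windows. A match of letters is a description of the sequence and does not say that a factor binds there.

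In the deposited table each gene has its position on mm10. Per1 is on chromosome 11 from 69095217 to 69109960, Per2 on chromosome 1 from 91415982 to 91459324, Cry1 on chromosome 10 from 85131702 to 85185054, Nr1d2 on chromosome 14 from 18204054 to 18239127 and Arntl on chromosome 7 from 113207465 to 113314126. For the other 5 the table gives a locus that holds other genes too. Nr1d1 spans 98767932 to 98775333 of chromosome 11 in GENCODE, and its locus from 98741811 to 98775333 also holds Thra on the opposite strand, the thyroid hormone receptor gene that overlaps its end. Thra had between 1.8 and 11.5 FPKM in the libraries, and whether the counting used the strand is not given in the sources used here. Dbp (45705088 to 45710203 of chromosome 7) shares its locus with Sphk2 and Rpl18, and Per3, Cry2 and Tef also share theirs.

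Before the comparisons, 1 feature of the libraries has to be described. The libraries of each group are numbered 0, 1 and 2, and at 32-weeks those numbered 2 were low for most clock genes. In the 8 groups of 32-weeks the library numbered 2 was the lowest of its group in 8 of 8 for Per1, Per2 and Cry2, and in 7 of 8 for Per3, Dbp, Tef, Nr1d1 and Nr1d2. Of all 13307 genes that averaged 1 FPKM or more, 1.29% were lowest there in at least 7 of the 8 groups and 0.24% in 8 of 8. Cry1 was lowest there in 2 groups and Arntl in 1, and Arntl was highest there in 4. Nr1d1 had the largest median gap of the members in both cell types, and the widest gap in 1 group was that of Dbp in monocytes (-2.62). In AΦ its level on the log2(FPKM + 1) scale was lower in the library numbered 2 than in the mean of the other two by a median of 1.66 over 4 groups (median difference -1.66, range -2.08 to -1.38), and in monocytes by a median difference of -1.25 (range -2.10 to -0.39). For all genes the median of this difference lay between 0.02 and 0.12 in the 8 groups. The 8 groups are not 8 independent observations, because several populations may have been sorted from 1 mouse, and the labels do not say which libraries share one.

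**Figure D1:**
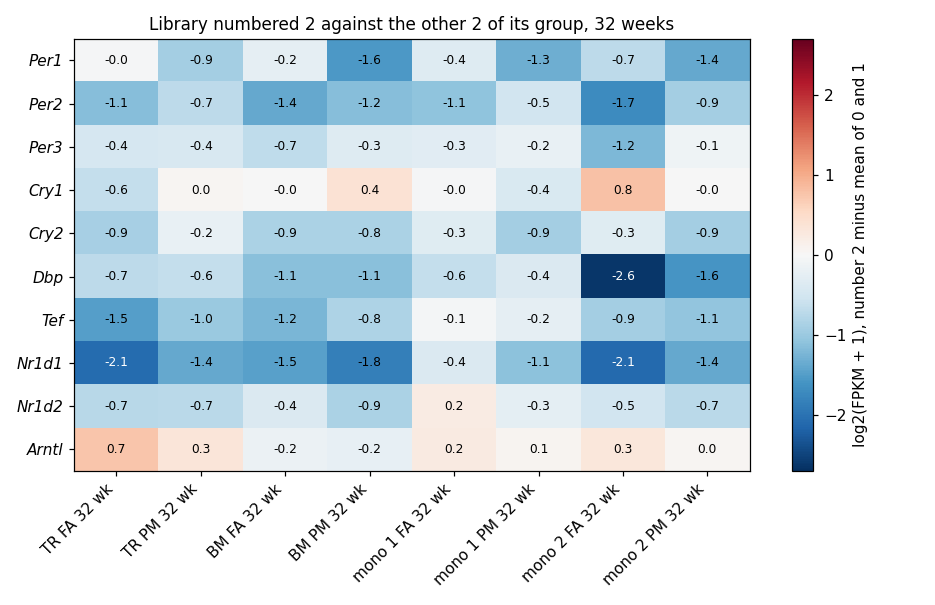
Difference in log2(FPKM + 1) between the library numbered 2 and the mean of the libraries numbered 0 and 1, for the 10 clock genes (rows) in the 8 groups of 32-weeks (columns). Nr1d1 ranges from -2.08 to -1.38 in the 4 AΦ groups, while Cry1 and Arntl have values on both sides of 0.

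Other features moved with these libraries. The summed FPKM of 5 red cell markers (Hba-a1, Hba-a2, Hbb-bs, Hbb-bt and Alas2) was 39.4 to 57.3 in the AΦ libraries numbered 2 and 0 to 2.38 in the other AΦ libraries of 32-weeks, and it was highest in the library numbered 2 in all 8 groups. In monocytes it was 17.7 to 85.7 against 0 to 19.5. The sum of 11 alveolar macrophage markers was also highest there in all 4 AΦ groups (10144 to 12068 FPKM against 5864 to 10161). In monocytes it was highest there in 3 of 4 groups (458 to 702 FPKM against 145 to 1402). In monocytes 4 epithelial markers summed to 29.4 to 37.3 FPKM in the libraries numbered 2 and 5.09 to 23.4 in the others, and 6 interstitial macrophage markers were lowest there in 3 of 4 groups. Immediate early genes were not lowest there throughout (lowest in 2 of 4 AΦ groups and 3 of 4 monocyte groups, over the sum of 8 genes). Their part in the clock gene levels was not tested. At 4-weeks the libraries numbered 2 were lowest in 3 of the 4 groups for Nr1d1 and Cry2 and in 0 of 4 for Per1, Per3, Dbp and Arntl, and in the 4-week monocytes they held the highest neutrophil markers. The TR-AΦ libraries numbered 2 of 4-weeks also stood apart, with 143 and 122 FPKM of summed monocyte markers against 20.0 to 26.2 in the other 4, and 399 and 776 FPKM of interstitial macrophage markers against 233 to 275. They enter the comparison of TR-AΦ between time points. Results that rest on these libraries are given with all libraries and without the 12 numbered 2. Since these libraries were singled out after their clock gene values were seen, the values without them are a description.

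The cell type markers followed the labels. The sum of alveolar macrophage markers was 5397 to 12068 FPKM in AΦ libraries and 145 to 1402 FPKM in monocyte libraries, and that of 8 monocyte markers was 16.8 to 143 in AΦ and 696 to 2495 in monocytes. Summed over all genes, a library had 1839577 to 3339020 FPKM. In bulk RNA a change in the cells that make up a sample and a change in RNA per cell cannot be told apart.

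The Per and Cry genes encode the repressors of the loop. Per1 was the most abundant member, with a median of 34.0 FPKM over 36 libraries (10.6 to 76.1), and Per3 the least, with a median of 0.43 FPKM (0.10 to 2.81). In TR-AΦ of 4-weeks Per1 was 13.9, 18.9 and 14.1 FPKM in FA and 19.9, 16.9 and 20.5 in PM2.5. At 32-weeks it was 33.6, 34.5 and 33.3 in FA and 31.1, 29.8 and 15.7 in PM2.5, and in BM-AΦ 40.3, 30.2 and 29.3 in FA and 37.1, 29.6 and 10.6 in PM2.5. These libraries are in the order 0, 1 and 2, as in all lists of 3 values here, and in both PM2.5 groups of 32-weeks the last stood well below the other two. In monocytes Per1 was 32.3 to 42.0 FPKM at 4-weeks, 25.5 to 74.2 in monocytes 1 and 24.4 to 76.1 in monocytes 2. Ordered by group means, the 6 monocyte groups lay above the 6 AΦ groups, and the lowest of these monocyte groups (36.05 ± 2.54 FPKM, SD, n = 3) did not overlap the highest AΦ group (33.8 ± 0.63 FPKM, SD, n = 3), the only pair of neighbours in the order that did not overlap.

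Per2 had the opposite order between the cell types. It was 2.45 to 19.0 FPKM in AΦ, with a median of 6.33, and 0.35 to 7.44 FPKM in monocytes, with a median of 1.501. The 2 highest values, 19.0 in TR-AΦ and 16.4 in BM-AΦ, were the libraries numbered 1 of FA exposed mice at 32-weeks. No pair of neighbours among the 12 group means of Per2 was free of overlap, and the same held for Per3, Cry1, Tef, Nr1d2 and Arntl. Cry1 was 6.99 to 19.4 FPKM over all libraries, the smallest ratio of highest to lowest among the members (2.78). Cry2 was 0.60 to 6.92 FPKM in AΦ and 2.36 to 8.67 in monocytes.

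Nr1d1, the heme-binding repressor of Arntl, ranged from 0.90 to 33.0 FPKM over the 36 libraries, a ratio of 36.8. In TR-AΦ of 4-weeks it was 5.80, 5.47 and 3.20 FPKM in FA and 7.18, 5.15 and 3.23 in PM2.5. In TR-AΦ of 32-weeks it was 28.2, 20.2 and 4.88 in FA and 24.0, 24.1 and 8.65 in PM2.5. In BM-AΦ it was 33.0, 17.4 and 7.99 in FA and 29.4, 23.4 and 6.58 in PM2.5. The libraries numbered 2 of 32-weeks thus reached down to or near the level of 4-weeks, while the other 8 AΦ libraries lay at 17.4 FPKM or above. Monocytes of 4-weeks had 1.98, 1.13 and 1.01 FPKM in FA and 1.53, 0.90 and 2.66 in PM2.5. Monocytes 1 had 6.73, 2.90 and 3.19 in FA and 10.8, 6.13 and 3.25 in PM2.5, and monocytes 2 had 26.1, 16.7 and 4.11 in FA and 17.1, 29.4 and 7.97 in PM2.5. All libraries of 32-weeks were above all monocyte libraries of 4-weeks. Its relative Nr1d2 was 3.88 to 18.4 FPKM in AΦ and 10.98 to 40.7 in monocytes.

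Dbp and Tef encode transcription factors of the PAR bZIP family that carry the rhythm to output genes. Dbp was near the floor of the table in AΦ, with 0 to 3.13 FPKM and 1 library listed at 0. In monocytes of 4-weeks it was 1.07, 0.70 and 0.96 FPKM in FA and 0.23, 1.21 and 0.63 in PM2.5. In monocytes 1 it was 4.10, 2.24 and 1.60 in FA and 2.14, 4.52 and 2.15 in PM2.5, and in monocytes 2 it was 30.0, 9.26 and 1.91 in FA and 6.46, 17.6 and 2.93 in PM2.5. Dbp in monocytes 2 thus differed more than 10-fold within the FA group. Tef was 1.39 to 11.6 FPKM in AΦ and 4.02 to 22.3 FPKM in monocytes, and its 4 highest values were the libraries numbered 0 and 1 of monocytes 2. Arntl, the activator, was 1.05 to 3.34 FPKM in all libraries, and no neighbours in the order of its 12 group means were free of overlap.

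**Figure D2:**
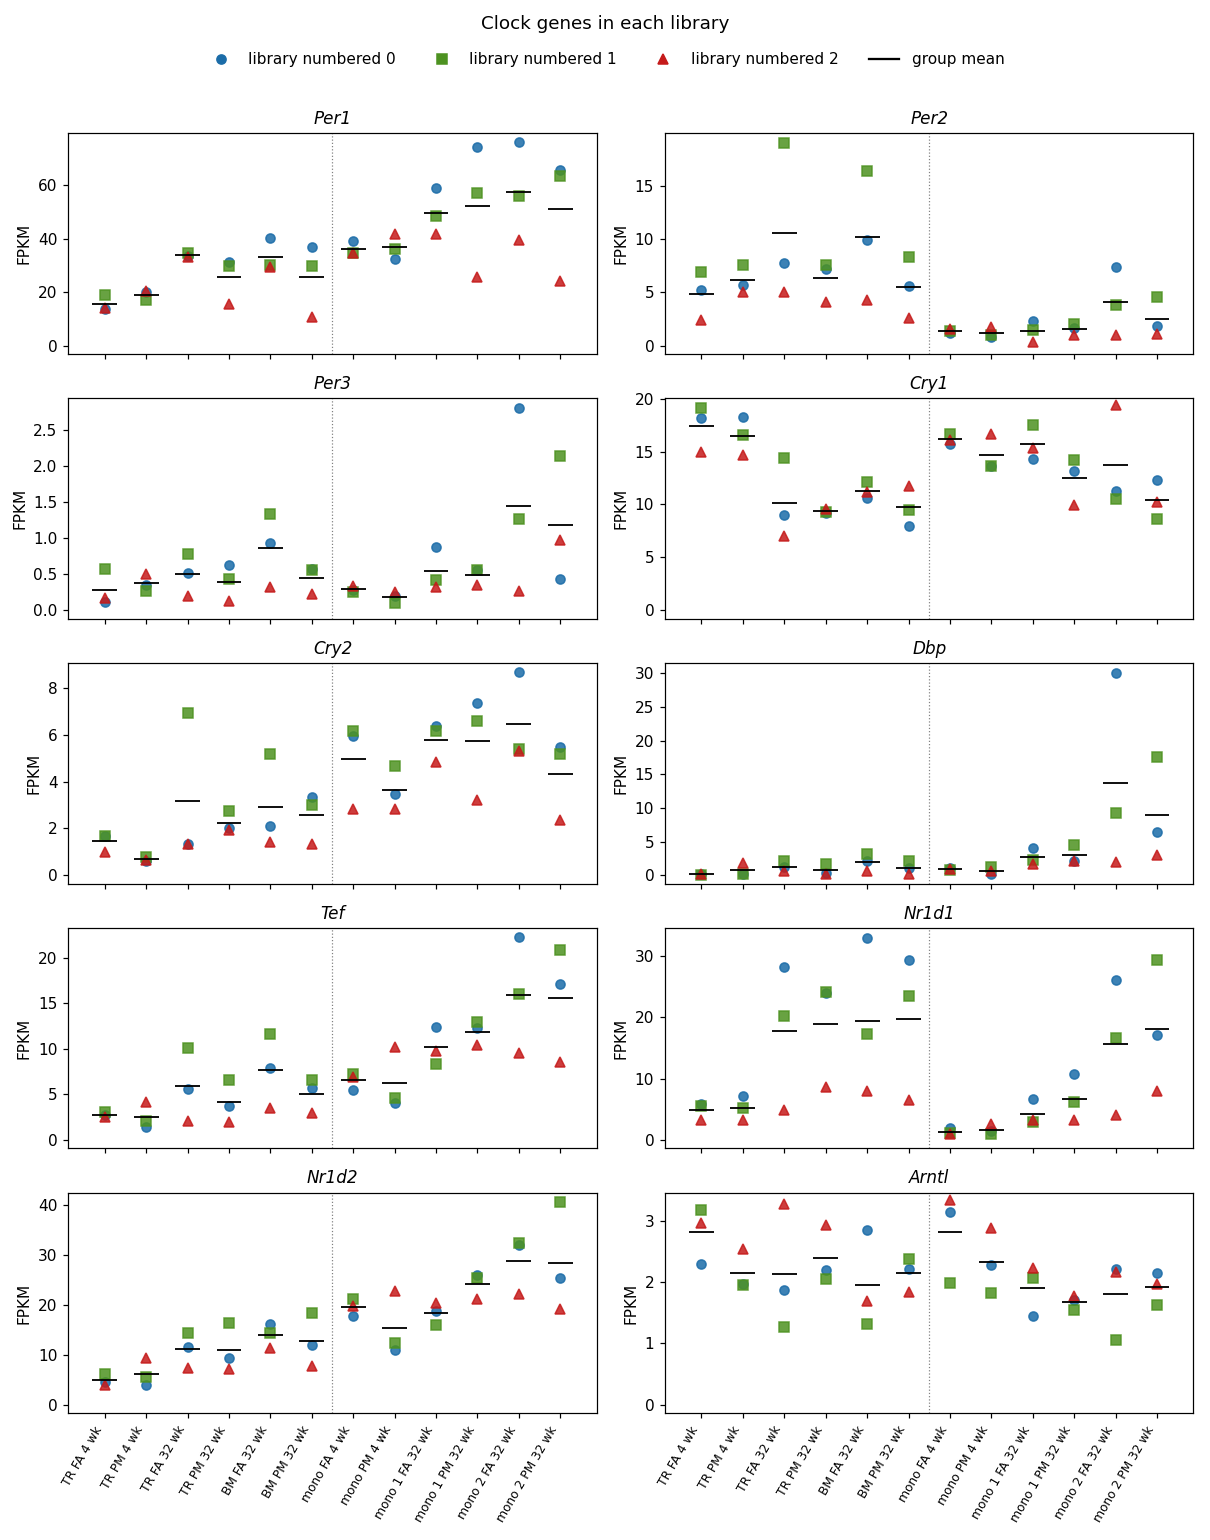
FPKM of the 10 clock genes in each library (points, shaped and coloured by library number) with group means (lines), by group on the horizontal axis; TR and BM are AΦ and mono the monocytes. Nr1d1 of 32-weeks spans 4.88 to 33.0 FPKM in AΦ with the libraries numbered 2 lowest in each group, and the 4 libraries with Dbp over 5 FPKM are of monocytes 2.

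PM2.5 and FA exposed mice were compared within each population and time point, the question of the study. No clock gene passed the threshold of limma's test (adjusted p under 0.05) in any of the 6 comparisons. Of all genes tested, 0.0079% passed in TR-AΦ at 4-weeks, 0% in TR-AΦ at 32-weeks, 0.0158% in BM-AΦ, 0.00778% in monocytes of 4-weeks and 0% in both monocytes 1 and monocytes 2, so that almost no gene of any kind was called. Not 1 of the members tested had an unadjusted p under 0.05 either. The test covered 8 members in AΦ, where Per3 and Dbp had a mean under 1 FPKM, and 9 in monocytes, where Per3 did.

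The largest differences were of the Per and Cry genes in AΦ and are given with their standard errors, which are of similar size. At 32-weeks Per2 was 10.2 ± 6.07 FPKM in FA and 5.52 ± 2.92 in PM2.5 (SD, n = 3) in BM-AΦ, a log2 difference of -0.73 (SE 0.51). In TR-AΦ it was 10.6 ± 7.42 and 6.32 ± 1.91 FPKM (SD, n = 3), a log2 difference of -0.52 (SE 0.51). Per1 differed by -0.51 (SE 0.35) in BM-AΦ and by -0.45 (SE 0.35) in TR-AΦ on the log2 scale, and the adjusted p was 1 for each of these from limma. In TR-AΦ the 3 PM2.5 libraries of Per1 lay below the 3 FA libraries (exact two-sided permutation p = 0.1, the smallest that 3 against 3 allow), where 2.76% of all genes were lower without overlap. Without the PM2.5 library numbered 2 the difference was -0.15 in TR-AΦ and 0.01 in BM-AΦ, so the size of the Per1 difference rested on that library in both. The Per2 difference was -0.03 in TR-AΦ and -0.33 in BM-AΦ without the FA library numbered 1. It was -0.90 and -1.19 without the FA library numbered 2, so its size also moved with single libraries. At 4-weeks Cry2 was lower in PM2.5 exposed TR-AΦ (0.60, 0.78 and 0.67 FPKM against 1.68, 1.69 and 1.01) with a log2 difference of -0.53 (SE 0.44, adjusted p 1 from limma) and no overlap (exact two-sided permutation p = 0.1, where 3.51% of all genes were lower without overlap). Per2 was next there, with a log2 difference of 0.35 (SE 0.51).

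In monocytes the differences were as small against their errors. The largest at 4-weeks were -0.39 for Nr1d2 (SE 0.28) and -0.33 for Cry2 (SE 0.33). In monocytes 1 they were 0.50 for Nr1d1 (SE 0.58) and 0.38 for Nr1d2 (SE 0.28), and in monocytes 2 they were -0.51 for Cry2 (SE 0.33) and -0.41 for Per2 (SE 0.48). In monocytes 1 Nr1d2 did not overlap between PM2.5 (26.1, 25.4 and 21.2 FPKM) and FA (18.8, 16.0 and 20.3 FPKM), and nor did Cry1, which was lower in PM2.5 (13.2, 14.2 and 9.97 FPKM against 14.3, 17.5 and 15.4 FPKM). Of all genes 6.49% were higher and 2.4% lower without overlap there. The interaction of exposure with time in TR-AΦ (background 0.0079%) and that of exposure with origin in AΦ of 32-weeks (background 0.0158%) called 0 members of 8. The largest with time were -0.87 for Per2 (SE 0.72) and -0.73 for Per1 (SE 0.50), and the largest with origin were -0.25 for Nr1d1 (SE 0.94) and -0.21 for Per2 (SE 0.72), all on the log2 scale.

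TR-AΦ of 32-weeks were compared with TR-AΦ of 4-weeks, which asks how the resident cells differ after the longer stay. The time points differ in the age of the mice, the time since transplantation and the day of collection, which cannot be told apart. Over both exposures 1 clock gene of the 8 tested passed, where 5.91% of all genes did and 3.35% were called lower. This was Cry1, which fell. It was 18.2, 19.1 and 14.9 FPKM in FA and 18.2, 16.5 and 14.6 in PM2.5 at 4-weeks, and 8.99, 14.4 and 6.99 in FA and 9.20, 9.30 and 9.56 in PM2.5 at 32-weeks. All 6 libraries of 32-weeks lay below all 6 of 4-weeks, as for 2.31% of all genes, and the log2 difference was -0.76 (SE 0.14, adjusted p 0.00639 from limma; exact two-sided permutation p = 0.00216, the smallest that 6 against 6 allow). The difference was -0.77 in FA and -0.75 in PM2.5 exposed mice alone, with adjusted p of 0.102 and 0.0871 from limma, where 0.782% and 1.05% of all genes passed and no clock gene did.

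The Nr1d genes and Per1 differed in the other direction in TR-AΦ without passing. Nr1d1 had a log2 difference of 1.52 (SE 0.47, adjusted p 0.0704 from limma), Nr1d2 of 0.86 (SE 0.25, adjusted p 0.0575) and Per1 of 0.71 (SE 0.25, adjusted p 0.107). Without the libraries numbered 2, 5 of 9 members tested passed, namely Cry1, Nr1d1, Nr1d2, Per1 and Tef, where 2.9% of all genes did. Leaving out 1 library moved the count from 1 to 2 in 2 cases, with Nr1d1 joining without FA library 2 of 32-weeks (where 3.85% of all genes passed) and Nr1d2 without PM2.5 library 2 of 4-weeks (where 3.91% did). In FA alone Cry1 passed when FA library 1 of 32-weeks was left out.

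Other genes tied to the clock were counted from lists in this comparison, where 2.56% of all genes rose and 3.35% fell. Of 18 other clock components, 10 were tested and 0 passed. Of 10 clock output and glucocorticoid genes, 9 were tested, 2 rose and 1 fell. Fkbp5, a chaperone that glucocorticoids induce, rose by 1.14 on the log2 scale (SE 0.24, adjusted p 0.0146), and Klf9, a transcription factor that glucocorticoids and the clock both drive, by 0.87 (SE 0.20, adjusted p 0.0222). Of 8 immediate early genes, which cells switch on within minutes of a stimulus, 3 fell and 0 rose. Egr1 fell by 2.76 (SE 0.34, adjusted p 0.00028) and Ier2 by 1.71 (SE 0.16, adjusted p 3.98e-05) on the log2 scale. Such genes respond to the handling of cells, and their part in the clock gene differences was not tested.

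Monocytes 2 of 32-weeks were compared with the monocytes of 4-weeks, both read as host cells. Over both exposures 4 of 9 clock genes tested passed, all higher at 32-weeks, where 14.9% of all genes passed and 7.06% were called higher. Nr1d1 rose from a mean of 1.53 to 16.9 FPKM, a log2 difference of 2.62 (SE 0.41, adjusted p 0.000894 from limma), and Dbp from 0.80 to 11.4 FPKM, a log2 difference of 2.33 (SE 0.48, adjusted p 0.00499). For both genes all 6 libraries of 32-weeks lay above all 6 of 4-weeks (exact two-sided permutation p = 0.00216, the smallest that 6 against 6 allow), as for 4.06% of all genes. Tef rose from 6.41 to 15.7 FPKM (log2 difference 1.15, SE 0.25, adjusted p 0.00665) and Nr1d2 from 17.5 to 28.7 FPKM (log2 difference 0.68, SE 0.20, adjusted p 0.0297), with overlap between the time points. The call of Nr1d2 was lost in 7 of 12 fits that left out 1 library and when only the 4 groups compared were in the fit (adjusted p 0.0743), and that of the other 3 was not lost in any of these fits. Without the libraries numbered 2, 6 of 9 members passed, these 4 with Per1 and Per2, where 7.96% of all genes did. Per3, which was not tested by limma, was 0.10 to 0.33 FPKM at 4-weeks and 0.27 to 2.81 in monocytes 2 (exact two-sided permutation p = 0.00649 over both exposures).

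Within each exposure Nr1d1 alone passed. Its log2 difference was 2.53 in FA (SE 0.58, adjusted p 0.0169 from limma), where 7.21% of all genes passed, and 2.71 in PM2.5 (SE 0.58, adjusted p 0.0284), where 2.42% did. These calls were not stable when 1 library was left out, while the difference stayed at 2.02 to 3.23 in FA and 2.29 to 3.17 in PM2.5. In FA the call was lost without library 1 or 2 of 4-weeks and without library 0 or 1 of 32-weeks (adjusted p 0.0534 to 0.0951), and in PM2.5 without any of the libraries except library 2 of 32-weeks (adjusted p 0.0592 to 0.153). Without library 2 of 32-weeks 3 members passed in FA (Dbp, Nr1d1 and Tef, where 6.5% of all genes did) and 2 in PM2.5 (Nr1d1 and Tef, where 1.62% did). With only the groups compared in the fit 0 members passed in either, with an adjusted p for Nr1d1 of 0.0952 and 0.146.

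Markers of other cell types moved with these genes. The summed FPKM of 6 interstitial macrophage markers (C1qa, C1qb, C1qc, Cd163, Mrc1 and Folr2) was 4.19 to 422 in monocytes of 4-weeks, 326 to 1049 in monocytes 1 and 905 to 3363 in monocytes 2, and all 6 markers rose in monocytes 2 against the monocytes of 4-weeks. Cd163, a scavenger receptor of tissue macrophages, was 0.08 to 3.48 FPKM at 4-weeks, 2.60 to 5.45 in monocytes 1 and 29.3 to 130 in monocytes 2. Folr2 was 0 to 2.49 FPKM at 4-weeks, 0 to 1.66 in monocytes 1 and 10.7 to 26.3 in monocytes 2, with 1 library at 0 in each of the first 2 populations. Of 10 alveolar macrophage markers tested 6 rose and 2 fell in the same comparison. Ear1 was 14.3 to 80.1 FPKM in monocytes 2 and 0 to 2.01 in the monocytes of 4-weeks, and Mertk was 6.88 to 44.2 against 0.14 to 2.40. In the other direction, Pparg was 2.48 to 14.3 FPKM in monocytes 2 against 14.6 to 54.5, and Fabp4 was 1.38 to 13.2 against 22.1 to 42.9. The summed alveolar markers were 187 to 316 FPKM at 4-weeks and 239 to 1402 in monocytes 2, with the highest in PM2.5 library 1, which also had the highest Nr1d1 of the monocyte libraries. In monocytes of 32-weeks this sum was highest in the library numbered 2 in 3 of 4 groups and lowest there in 0. Nr1d1 was lowest in the library numbered 2 in 7 of the 8 groups of 32-weeks, a count that includes the AΦ groups. The exception was a monocyte group, monocytes 1 of FA exposed mice (6.73, 2.90 and 3.19 FPKM). Of 8 monocyte markers 2 fell and 0 rose, and Treml4 was 9.61 to 60.1 FPKM in monocytes 2 against 105 to 341. Within monocytes 2 of FA exposed mice the sum of interstitial markers was 3363, 1973 and 976 FPKM in the libraries 0, 1 and 2, the order of Nr1d1, Dbp and Tef there, and in PM2.5 it was 1344, 2886 and 905, again the order of these genes. Over the 6 monocyte groups the order was shared in 4 for Nr1d1, 4 for Tef and 2 for Dbp. It was not shared in monocytes 1 of PM2.5 exposed mice (543, 971 and 326 FPKM) or in the monocytes of PM2.5 exposed mice of 4-weeks (305, 164 and 4.19 FPKM) for Nr1d1. Thra, which overlaps Nr1d1, was 11.5, 5.99 and 4.47 FPKM in monocytes 2 of FA exposed mice and 8.38, 10.7 and 5.99 in PM2.5, the order of Nr1d1 as well. The part of these cells, or of reads shared with Thra, in the clock gene differences was not tested.

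**Figure D3:**
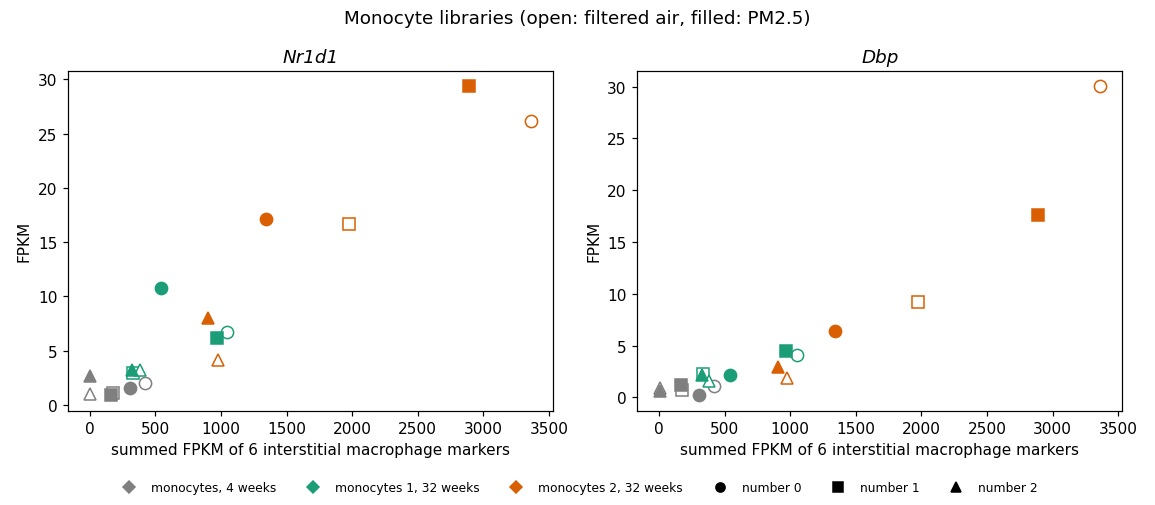
FPKM of Nr1d1 (left) and Dbp (right) against the summed FPKM of 6 interstitial macrophage markers in the 18 monocyte libraries, coloured by population, shaped by library number and open for FA. The monocytes of 4-weeks lie at sums of 4.19 to 422, and the highest Nr1d1 and Dbp values are at the highest sums, in monocytes 2.

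Of the other clock components 11 were tested in this comparison of monocytes, and 2 rose and 1 fell, where 7.06% of all genes rose and 7.83% fell. Bhlhe41, a repressor of the loop that alveolar macrophages express highly, rose by 1.71 on the log2 scale (SE 0.39, adjusted p 0.00919), Rora, which activates Arntl through ROR elements, rose by 0.78 (SE 0.20, adjusted p 0.019), and Bhlhe40 fell by 1.58 (SE 0.26, adjusted p 0.00131). Of the clock output and glucocorticoid genes 1 rose, Fkbp5, by 2.11 (SE 0.44, adjusted p 0.00491), and 1 fell. Of the immediate early genes 2 fell and 0 rose.

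The change with time was then compared between TR-AΦ and monocytes. No clock gene passed for the interaction of time with cell type (0 of 9, where 7.88% of all genes passed). Dbp was nearest, with a difference of -1.81 between the changes on the log2 scale (SE 0.60, adjusted p 0.0633 from limma), followed by Nr1d1 with -1.10 (SE 0.64, adjusted p 0.36). Dbp passed without PM2.5 library 1 of TR-AΦ of 32-weeks (adjusted p 0.0492), without FA or PM2.5 library 2 of monocytes 2 (adjusted p 0.00619 and 0.0277) and without all libraries numbered 2 (adjusted p 0.0437).

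The 2 origins were compared at 32-weeks over both exposures. BM-AΦ and TR-AΦ did not differ past the threshold for any of 8 clock genes, where 0.316% of all genes passed. The largest differences were 0.34 for Tef (SE 0.34, adjusted p 0.938) and 0.27 for Nr1d2 (SE 0.25, adjusted p 0.925), and Nr1d1 was 19.6 and 18.3 FPKM on average (log2 difference 0.09, SE 0.47). Monocytes 2 and monocytes 1 did not differ past the threshold for any of 9 clock genes, where 0.669% of all genes passed. Nr1d1 was 16.9 against 5.495 FPKM (log2 difference 1.34, SE 0.41, adjusted p 0.203) and Dbp 11.4 against 2.79 FPKM (log2 difference 1.29, SE 0.48, adjusted p 0.353). Nr1d1 passed without FA library 2 of monocytes 2 (adjusted p 0.0356). Interstitial macrophage markers moved with this contrast too, with Cd163 and Folr2 higher in monocytes 2 by 3.57 and 3.32 on the log2 scale (adjusted p 0.00071 and 0.000135 from limma).

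AΦ and monocytes were compared at each time point. At 4-weeks 6 of 9 clock genes tested differed, where 48.2% of all genes did, so that a call was common for genes of any kind. Per2 (log2 difference 1.48, SE 0.36, adjusted p 0.00115) and Nr1d1 (1.24, SE 0.45, adjusted p 0.0255) were higher in AΦ. Nr1d2 (-1.4997, SE 0.23, adjusted p 3.78e-06), Cry2 (-1.34, SE 0.28, adjusted p 0.000218), Per1 (-1.04, SE 0.27, adjusted p 0.00228) and Tef (-1.01, SE 0.31, adjusted p 0.00824) were lower. Per1 and Per2 thus differed in opposite directions, and so did Nr1d1 and Nr1d2. The 6 AΦ libraries did not overlap the 6 monocyte libraries for Per1, Per2, Cry2, Nr1d1 and Nr1d2 (exact two-sided permutation p = 0.00216 for each), where 29.8% of all genes did not overlap. The call of Nr1d1 was lost without TR-AΦ library 0 of FA or of PM2.5 or without monocyte library 1 of PM2.5 (adjusted p 0.0518 to 0.0614).

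At 32-weeks 8 of 9 clock genes tested differed, where 61% of all genes did, and Arntl did not (log2 difference 0.14, SE 0.11, adjusted p 0.268). Per2 (1.46, SE 0.25) and Nr1d1 (0.86, SE 0.32, adjusted p 0.0227) were again higher in AΦ on the log2 scale. Dbp (-1.44, SE 0.30), Tef (-1.18, SE 0.22), Nr1d2 (-0.99, SE 0.16), Cry2 (-0.89, SE 0.20), Per1 (-0.80, SE 0.19) and Cry1 (-0.33, SE 0.10, adjusted p 0.00688) were lower, with adjusted p of 0.000706 or less for those where none is given. Monocytes 1 and monocytes 2 were pooled here, and neither was compared with AΦ alone. Nr1d1 averaged 5.495 FPKM in monocytes 1 and 16.9 in monocytes 2, which lay near TR-AΦ (18.3) and BM-AΦ (19.6). Dbp averaged 2.79 FPKM in monocytes 1 and 11.4 in monocytes 2, against 1.28 in AΦ. The call of Nr1d1 was lost without library 0 of FA in TR-AΦ or BM-AΦ or without library 2 of FA or PM2.5 in monocytes 2 (adjusted p 0.0501 to 0.0562), and with only the groups compared in the fit (adjusted p 0.0511).

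The scale of the 2 cell types mattered for the smaller differences. When all libraries were set to equal sums of FPKM, the median of all genes moved from -0.02 to 0.21 at 4-weeks and from 0.02 to 0.26 at 32-weeks on the log2 scale. Under this scaling Tef did not pass at 4-weeks (-0.75, adjusted p 0.0546), and Cry1 did not at 32-weeks (-0.06, adjusted p 0.643). Both cell types may have been sorted from the same mice, and these p-values treat the libraries as independent.

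**Figure D4:**
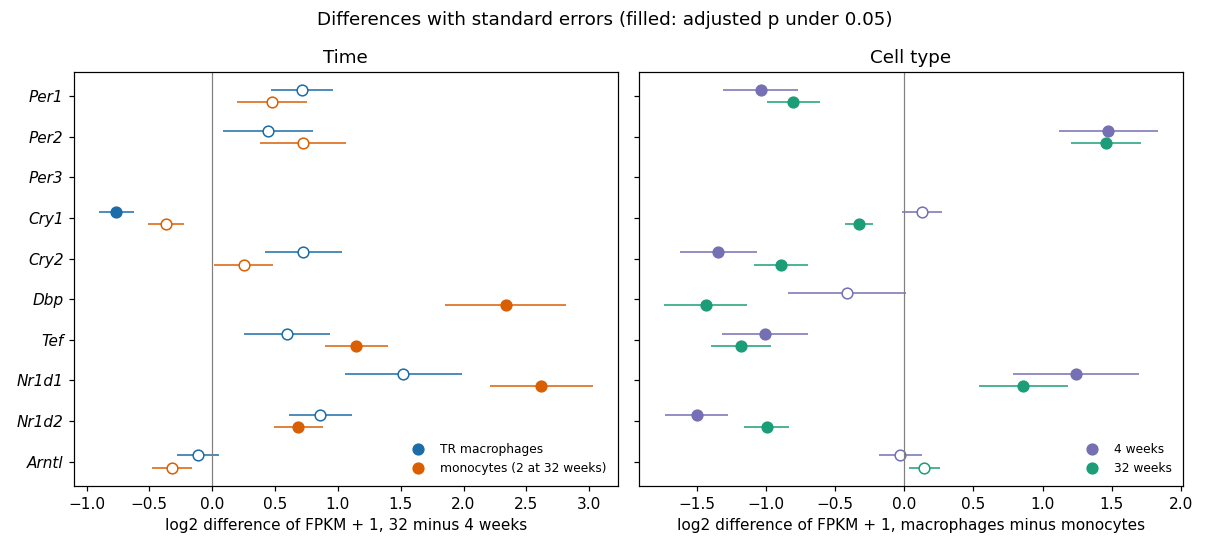
Log2 differences of the clock genes with standard errors, 32-weeks minus 4-weeks over both exposures in TR-AΦ and in monocytes (left), and AΦ minus monocytes at each time point (right); filled points passed an adjusted p of 0.05 and Per3 was not tested in either, nor Dbp in TR-AΦ. Nr1d1 and Dbp have the largest changes with time in monocytes (2.62 and 2.33), and Per2 and Nr1d1 alone are called on the AΦ side of 0 among the differences between cell types.

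At 4-weeks 3 of 11 other clock components tested were higher in AΦ and 2 lower, a share near the 48.2% of all genes called. Bhlhe41 was higher by 4.36 on the log2 scale (SE 0.33) and Rora by 1.58 (SE 0.17), and Nfil3, a repressor that competes at D-boxes, was lower (-0.99, SE 0.24). Clock itself, the partner of Arntl, was higher by 0.36 (SE 0.15, adjusted p 0.0489). At 32-weeks 3 of 11 were higher and 2 lower, where 61% of all genes were called, with Bhlhe41 (3.80, SE 0.23) and Bhlhe40 (1.57, SE 0.16) higher and Ciart, a repressor of the CLOCK pair, lower (-1.09, SE 0.24).

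The members were also compared with each other within the groups. For each gene the group mean was subtracted on the log2(FPKM + 1) scale, and Pearson's r was taken over the 36 deviations, which share libraries and, in part, mice. Among 7 members (Per1, Per2, Cry2, Dbp, Tef, Nr1d1 and Nr1d2), r of the 21 pairs was between 0.42 and 0.88, with a median of 0.63. The 7 leave out Cry1 and Arntl, which had low r with the others over 36 libraries, so this median is of a selected set. The median over pairs of 1331 genes taken at every 10th row, not selected by r, was 0.04 (quartiles -0.14 and 0.22). The pairs that included Cry1 or Arntl had a median r of -0.14 (-0.42 to 0.32 over 15 pairs), and the lowest was that of Cry2 and Arntl. Without the libraries numbered 2 the median of the 21 pairs was 0.21 (-0.32 to 0.82 over 24 libraries). For the 15 pairs with Cry1 or Arntl it was -0.064, with a wider range than over 36 libraries. That range ran from -0.63 for Cry1 and Nr1d1 to 0.65 for Cry1 and Cry2. With 2 libraries left in a group their deviations are equal and opposite, so each of the 12 groups gives 1 separate value. The pairs are divided below along these same r values, as a description. The 10 pairs among Per2, Cry2, Dbp, Tef and Nr1d2 had a median r of 0.69 over 36 libraries and 0.68 over 24 (0.21 to 0.82). The 10 pairs of Per1 or Nr1d1 with 1 of these had a median of 0.59 over 36 libraries and -0.0027 over 24 (-0.32 to 0.18), so that their covariation was not seen without those libraries. Per1 and Nr1d1 had an r of 0.75 with each other over 36 libraries and 0.65 over 24.

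**Figure D5:**
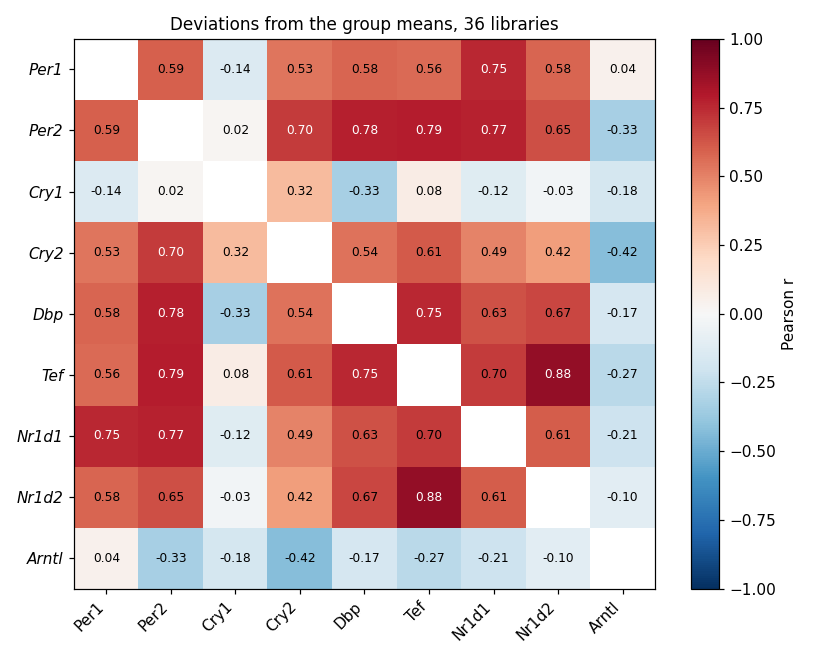
Pearson's r between 9 clock genes of their deviations from the group means on the log2(FPKM + 1) scale over 36 libraries. Tef and Nr1d2 have the highest r (0.88), and the rows of Cry1 and Arntl hold the negative values.

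The genes most like each member in these deviations were looked up among 13306 others. Tef and Nr1d2 were each other's nearest gene (r = 0.88, Spearman's rho = 0.88), and Per2 was the third nearest to Tef (r = 0.79). These were the only clock genes among the 27 places, 3 for each of 9 members. For Per2 the nearest genes were Ccnl1, Tchh and Trim65 (r = 0.80 to 0.82), and Tef was the fourth. For Nr1d1 they were Eva1b, Myc and Pcnx3 (r = 0.86 to 0.90), for Per1 Irs2, Rnf169 and Trim11 (r = 0.86 to 0.88), for Dbp Gm42748, Itsn1 and Zfp691 (r = 0.78 to 0.80) and for Cry2 1200007C13Rik, Hic2 and Rps6kc1 (r = 0.71 to 0.76). Cry1 was nearest to Zdhhc16 (r = 0.76), and Arntl to Tle4 (r = 0.70). Among the listed genes Nr1d1 was closest to the immediate early gene Jun (r = 0.72) and to Tsc22d3 (r = 0.69), a gene that glucocorticoids induce, and Dbp to Ciart (r = 0.66).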

How the data were processed

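RNA-seq of sorted lung AΦ and monocytes (36 libraries, 12 groups of 3) was analysed from deposited FPKM. The authors trimmed reads with TrimGalore, aligned them to mm10 with STAR guided by GENCODE, and computed FPKM per gene with Cufflinks; the strand setting is not given in the sources used here. Groups came from the labels. Genes averaging 1 FPKM or more over the libraries of a model (12665 in AΦ, 12856 in monocytes, 13307 in both) were fitted as log2(FPKM + 1), with 1 mean per group, in limma 3.58.1 (R 4.3.3, eBayes with trend). Adjusted p is Benjamini-Hochberg over all genes tested within each of 19 comparisons, at a threshold of 0.05. Fold changes on this scale understate those of low genes. Single genes were also compared with exact two-sided permutation tests. The members and gene lists were chosen with earlier results of these data known. Members past the threshold are named for each comparison, or the 2 with the largest difference where none passed, and list genes past it, at most 4 per comparison. Alternatives were a pseudocount of 0.1, no filter, quantile normalization, equal sums of FPKM, only the groups compared, a replicate block and leaving out each library; leaving out the libraries numbered 2 was chosen after seeing the data. The procedure was tested on simulated data. The labels do not tie libraries to mice, so p-values measure the spread between libraries.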

Additional observations from a re-analysis of the deposited data

How the results depend on the processing

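The counts of clock genes past the threshold in the PM2.5 against FA comparisons, the interactions with exposure, and BM-AΦ against TR-AΦ were 0 under all alternatives run, including the fits without 1 library. For 32-weeks against 4-weeks in TR-AΦ over both exposures the count was 1, where 5.91% of all genes passed. It became 2 with quantile normalization (5.66% of all genes) and 2 with only the groups compared (2.99%). It became 3 with the replicate block (10.3%) and 5 without the libraries numbered 2 (2.9%, chosen after the data were seen). Without 1 library it ranged from 1 to 2 (3.29% to 7.19%). In FA the count was 0, where 0.782% of all genes passed. It became 1 with the replicate block (1.56%) and 1 without the libraries numbered 2 (0.806%). Without 1 library it was 0 to 1 (0.767% where 1 passed). In PM2.5 the count of 0 (1.05%) became 1 with the replicate block (3.01%). In monocytes of FA exposed mice the count was 1, where 7.21% of all genes passed. It became 2 with a pseudocount of 0.1 (7.18%) and 2 with the replicate block (11.5%). It became 0 with only the groups compared (2.13%) and 3 without the libraries numbered 2 (2.25%). Without 1 library it was 0 to 3 (2.69% to 6.5%). In PM2.5 the count was 1, where 2.42% of all genes passed. It became 0 with only the groups compared (0.119%) and 2 without the libraries numbered 2 (0.234%). Without 1 library it was 0 to 2 (0.428% to 2.12%). Over both exposures the count of 4 (14.9%) was 3 to 6 without 1 library (10.7% to 15.4%). It was 6 without the libraries numbered 2 (7.96%). Monocytes 2 against monocytes 1 had 0 (0.669% of all genes), and 0 to 1 without 1 library (1.18% where 1 passed). The interaction of time with cell type had 0 (7.88%). It had 1 under the replicate block (11.7%) and 1 without the libraries numbered 2 (4.91%). Without 1 library it had 0 to 1 (7.02% to 8.89% where 1 passed). AΦ against monocytes had 5 to 6 at 4-weeks (45.4% to 47.6% of all genes without 1 library). At 32-weeks it had 7 to 8 (59.4% to 61.1% without 1 library). The cause of these moves was not tested.

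Single differences that changed sign without 1 library were those of PM2.5 against FA for Per1 in BM-AΦ (log2 -0.85 to 0.0089) and Per2 in monocytes 2 (-0.98 to 0.077), and the interactions of exposure with origin for Nr1d1 (-0.74 to 0.45, and 0.11 without the libraries numbered 2) and Per2 (-0.70 to 0.18), none of which passed in any fit. The replicate block uses the numbers 0, 1 and 2, which the labels do not tie to a mouse or batch across groups. Deviations from the group means of libraries with the same number had correlations across genes of -0.041 to 0.155 between populations of the same exposure and time. Here 26 of 42 libraries were closest to their own number, out of 3 candidates each. Between PM2.5 and FA the correlations were -0.087 to 0.209, and 12 of 18 libraries were closest to their own number. The numbers were not taken as pairs because these correlations were low, but the counts leave room for something shared by number, which was not tested. The block called Nr1d1 in TR-AΦ (adjusted p 0.0282 in FA and 0.0139 in PM2.5). FPKM carry no read numbers, so the depth behind low values, those of Per3 and of Dbp in AΦ, is unknown.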
